A study of Homo sapiens with 6 samples.

Results

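Long intergenic non-coding RNAs (lincRNAs) are by name transcripts of genes that lie between protein-coding genes and do not encode a protein. Some that carry this biotype here overlap the span of a coding gene. The 90 lincRNAs described here were chosen by their level: they are the rows of the deposited count table with the biotype lincRNA and a mean of 3 CPM or more (counts scaled to a common library total) over the 6 libraries. They are 90 of 7629 lincRNA rows and of 58735 rows in all. The selection used the measured level over both groups together and not the difference between them, so the difference could be tested. Of the 7629 lincRNA rows 479 had enough counts to enter the test, and all 90 well-expressed lincRNAs were among them.

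The RNA came from cultures of MDA-MB-231, a long-established human line of triple-negative breast cancer, a class that lacks hormone receptors and HER2 amplification. A group of 3 libraries is labelled Control and a group of 3 is labelled PM2.5, after airborne particles of small diameter, and RNA was taken after 48 h of exposure. The labels name no particle dose, source or vehicle, and apart from the treatment both groups carry the same description. The design text calls the 3 libraries of a group biological replicates without saying how the cultures were separated, so the p-values measure the spread between these libraries, which may be technical.

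LincRNAs act as RNA molecules, by the act of their own transcription, or as carriers of smaller RNAs. Some build nuclear bodies, as NEAT1 does for paraspeckles, and MALAT1 collects in nuclear speckles, where splicing factors are stored. Others hold microRNAs or small nucleolar RNAs (snoRNAs) in their introns and exons, bind proteins in the cytoplasm, or start from the promoter of a neighbouring gene and run the other way. Many are unstable and are removed by the nuclear exosome, so that their level reports on both their synthesis and their decay. In a bulk sample, fewer cells that express an RNA and less RNA per cell cannot be told apart.

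Total counts ran from 31846136 to 34691009 per library, and every one of the 90 lincRNAs was counted in every library. A count of 0 in a library would allow up to 0.0865 to 0.0942 CPM, which is 3 counts of its total and covers counting error only. ESR1, the oestrogen receptor gene, was at 0 CPM in all libraries, while the mesenchymal marker VIM stood at 2290 ± 320 CPM (SD, n = 3) in Control. Of 8 marker genes of other cells, 4 (PTPRC, CD3E, DCN and HBB) were at 0 throughout, and the sum of the 8 was 64.2 to 69.5 CPM in Control and 77.7 to 80.4 CPM in PM2.5, mostly PECAM1, which was called higher, and COL1A1, whose part in the lincRNA levels was not tested. KRT19, listed as low in this line, was at 995 ± 146 CPM in Control. Control replicate 3 stood apart from Control replicates 1 and 2 on the second principal component of all tested genes (15% of the variance, scores -36.9 against 16.5 and 14.8).

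The 90 lincRNAs made up little of the counted RNA. Their share of all counts was 0.157%, 0.163% and 0.194% in the Control libraries and 0.187%, 0.220% and 0.191% in the PM2.5 libraries, each in the order of replicates 1 to 3, as in all lists of values per library here. Control replicate 3 lay within the PM2.5 range, so the groups overlap. NEAT1 and MALAT1 together were 11.0%, 13.6% and 21.4% of the lincRNA counts in Control and 22.8%, 27.5% and 18% in PM2.5. Without that pair the share of all counts was 0.140%, 0.141% and 0.153% in Control and 0.144%, 0.160% and 0.157% in PM2.5. The levels were spread over a wide range, from 3.01 to 334 CPM with a median of 6.80 CPM, and 61 of the 90 lay under 10 CPM. The row for LINC-PINT (3.02 CPM) and LINC00630 (3.01 CPM) were the lowest that met the rule, and GAS6-DT (2.96 CPM) and LINC02019 (2.92 CPM) were the highest that did not.

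Between the groups, 17 lincRNAs were higher in PM2.5 and 21 were lower, and 52 were not called, by edgeR (quasi-likelihood test, p-values adjusted by Benjamini-Hochberg over 14975 tested genes, threshold 0.05). That is 18.9% higher and 23.3% lower. Of all tested genes 16.1% were called higher and 15.8% lower, and of the 10923 tested genes with the same minimum of 3 CPM 18.3% were called higher and 19.6% lower. The lincRNAs thus moved about as often as other genes of that level. Their median log2 fold change was 0.08, against -0.01 for all tested genes and -0.03 for those of 3 CPM or more. In 47 of the 90 (52.2%) the 3 PM2.5 values all lay above (20) or all below (27) the 3 Control values, which held for 44.3% of all tested genes. With Control replicate 3 left out 22 lincRNAs were higher and 25 lower, and with PM2.5 replicate 2 left out 9 were higher and 15 lower.

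Large changes were few. The log2 fold changes ran from -2.88 to 1.44, with a median SE of 0.19. Of the 90, 4 were called and at least 2-fold higher and 2 were called and at least 2-fold lower, together 6.67%, against 7.22% of all tested genes. A change of at least 1.5-fold was reached by 28 of the 38 called lincRNAs. In 17 of the 38 the call held in all 14 other fits (other scalings, filters, tools, a replicate block, and each library left out), and all 38 kept their sign in every one.

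**Figure D1:**
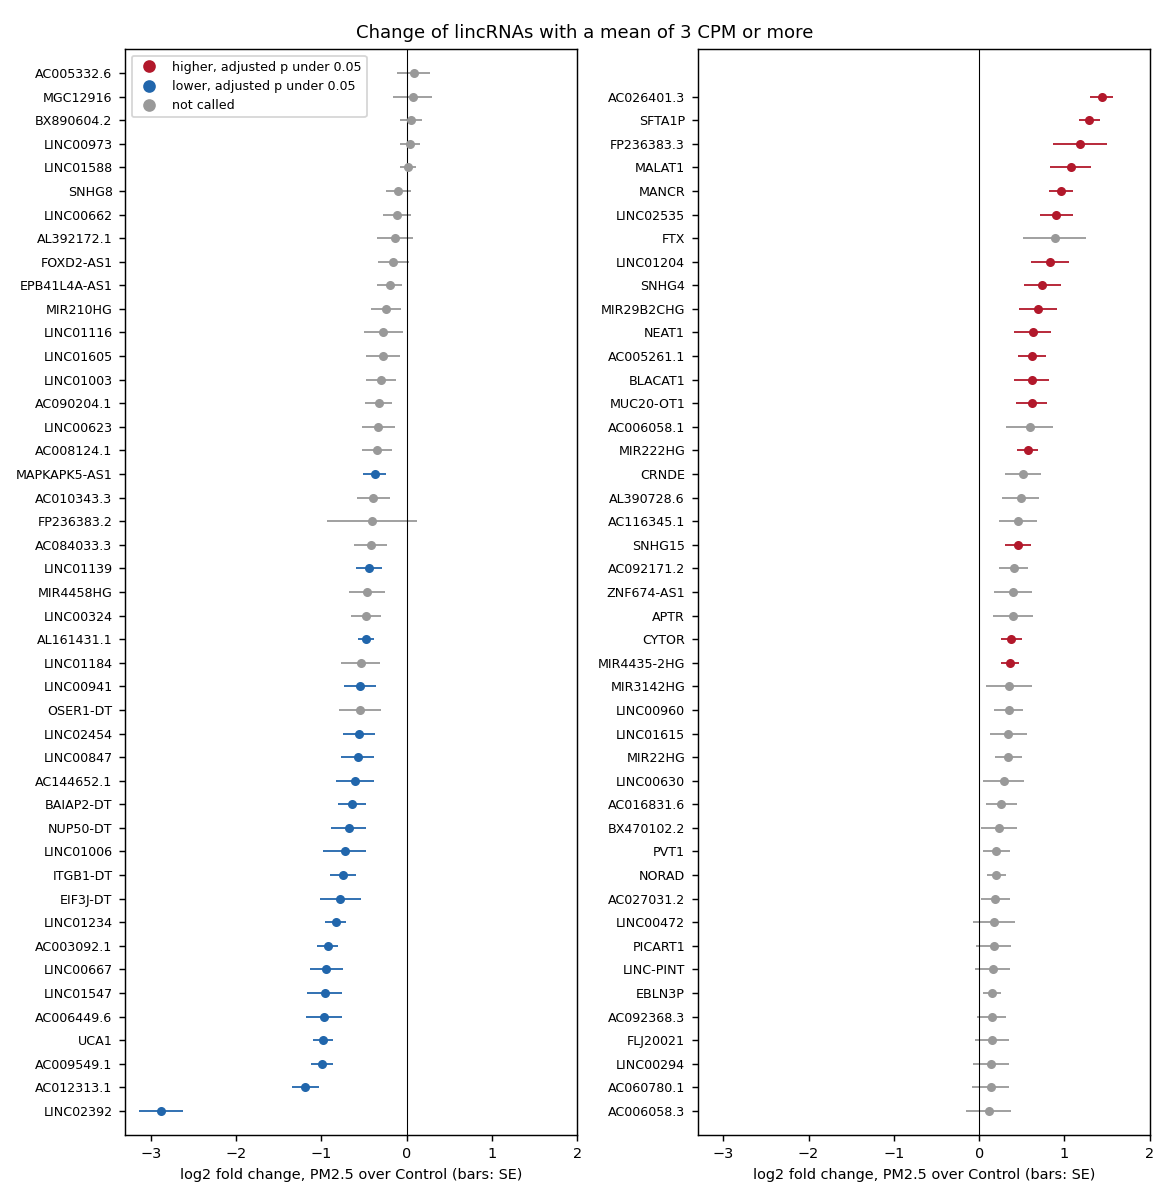
Log2 fold change of PM2.5 over Control (x axis) for 89 of the 90 lincRNAs, ordered by value and split over 2 panels, with bars for the SE from the fit of 3 against 3 libraries. Red points are the 17 called higher, blue points the 21 called lower and grey points 51 that were not called; LINC02392 lies alone at -2.88.

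LINC02392 fell most. This 4-exon lincRNA lies at chr12:90280894-90300340 on the plus strand (GRCh38). Its level was 11.5, 10.2 and 17.5 CPM in Control and 1.8, 2.4 and 1.1 CPM in PM2.5. The highest PM2.5 library was below the lowest Control library, and Control replicate 3 was the highest of all. The fall was 7.35-fold (log2 -2.88 ± 0.26 SE, edgeR adjusted p = 4.79e-07), and with Control replicate 3 left out the log2 change was -2.61. The nearest protein-coding gene, ATP2B1, which encodes a calcium pump of the plasma membrane, is 571594 bases away and was at 228 ± 12 CPM in Control and 212 ± 44.2 CPM in PM2.5, a log2 change of -0.10 ± 0.13 that was not called.

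UCA1 and AC012313.1, both on chromosome 19, fell about 2-fold. UCA1, first named for urothelial cancer and known as a cytoplasmic RNA that is raised in several carcinomas, was at 24.8, 23.1 and 26.6 CPM in Control and at 12.6, 12.6 and 12.5 CPM in PM2.5 (log2 -0.98 ± 0.12, edgeR adjusted p = 1.32e-05). Its libraries form narrow groups that lie far apart. AC012313.1, now named ZNF584-DT, was at 13.9, 15 and 17.5 CPM in Control and 7.3, 7.3 and 5.8 CPM in PM2.5 (log2 -1.19 ± 0.15, edgeR adjusted p = 2.67e-05). Its span overlaps that of ZNF584, a zinc finger gene on the opposite strand that also fell, by 0.37 on the log2 scale.

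Further falls close to 2-fold had groups that did not overlap. AC009549.1, a single-exon RNA within the span of NAV2 and on the opposite strand, now named NAV2-AS6, went from 20.4 ± 1.84 to 10.3 ± 0.35 CPM (log2 -0.99 ± 0.13), while NAV2 itself had a log2 change of 0.18 and was not called. AC003092.1 on chromosome 7 went from 22.5 ± 1.17 to 11.8 ± 0.61 CPM (log2 -0.93 ± 0.12). LINC01234, an RNA described in several tumour types, went from 27.3 ± 2.42 to 15.3 ± 0.97 CPM (log2 -0.83 ± 0.12). These 3 were called with edgeR adjusted p of 2.81e-05, 2.99e-05 and 7.09e-05.

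Other falls came from lower levels. AC006449.6 (log2 -0.97 ± 0.21), LINC01547 (-0.96 ± 0.21), LINC00667 (-0.94 ± 0.19), EIF3J-DT (-0.78 ± 0.24) and LINC01006 (-0.73 ± 0.25) had Control means of 3.9 to 6.4 CPM, and ITGB1-DT (-0.75 ± 0.16) had 14.7 ± 2.77 CPM. The call of LINC01006 was lost in 6 of the 14 other fits and that of EIF3J-DT in 3. At the other end of the scale, AL161431.1 on chromosome 13, now named LINC03061 and the fifth most counted of the 90, fell by a smaller step. It was at 117, 120 and 107 CPM in Control and 78.5, 82.2 and 87.1 CPM in PM2.5, a log2 change of -0.48 ± 0.09 (edgeR adjusted p = 0.00102), with no overlap of the groups.

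AC026401.3 and SFTA1P rose most. AC026401.3 is a single-exon RNA of 882 bases at chr16:15701237-15702118, on the same strand as NDE1 and inside its span, though none of its bases lies under an annotated exon of another gene. It was at 10.1, 9.8 and 7.7 CPM in Control and 23.5, 25.5 and 25.5 CPM in PM2.5, which is 2.71-fold (log2 1.44 ± 0.14, edgeR adjusted p = 8.2e-07). NDE1, which acts with dynein at the centrosome and kinetochore, went from 56.2 ± 5.67 to 128 ± 3.38 CPM (log2 1.19 ± 0.10). Reads of unspliced NDE1 RNA would fall on the same bases and strand, and their part in the rise of AC026401.3 was not tested.

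SFTA1P, a transcribed surfactant-associated pseudogene best known from lung, lies at chr10:10784437-10794980 on the minus strand. It was at 11.8, 11.4 and 9.9 CPM in Control and 26.2, 28.4 and 26.5 CPM in PM2.5, so every PM2.5 library was more than 2-fold above every Control library. The change was 2.45-fold (log2 1.29 ± 0.12, edgeR adjusted p = 9.54e-07). Its nearest coding gene, CELF2, an RNA-binding regulator of splicing on the opposite strand and 3417 bases away, rose too, from 7.58 ± 0.94 to 13.0 ± 0.44 CPM (log2 0.78 ± 0.15).

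MANCR, a mitotically associated lincRNA known from triple-negative breast cancer, was at 14.9, 13.8 and 20.8 CPM in Control and 32.7, 32.8 and 30.9 CPM in PM2.5 (log2 0.96 ± 0.14, edgeR adjusted p = 9.43e-05). LINC02535 was at 4.6, 4.8 and 3.3 CPM in Control and 7.3, 9.1 and 7.4 CPM in PM2.5 (log2 0.90 ± 0.19, edgeR adjusted p = 0.00188). In neither did the groups overlap, and both calls held in all 14 other fits. Smaller rises without overlap were those of LINC01204 (log2 0.83 ± 0.22), AC005261.1 (0.62 ± 0.17), BLACAT1, a bladder cancer-associated RNA (0.62 ± 0.21), and MUC20-OT1 (0.61 ± 0.18). Without PM2.5 replicate 2 none of these 4 was called, with log2 changes of 0.66, 0.47, 0.64 and 0.50, and the call of BLACAT1 was lost in 6 of the 14 other fits.

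**Figure D2:**
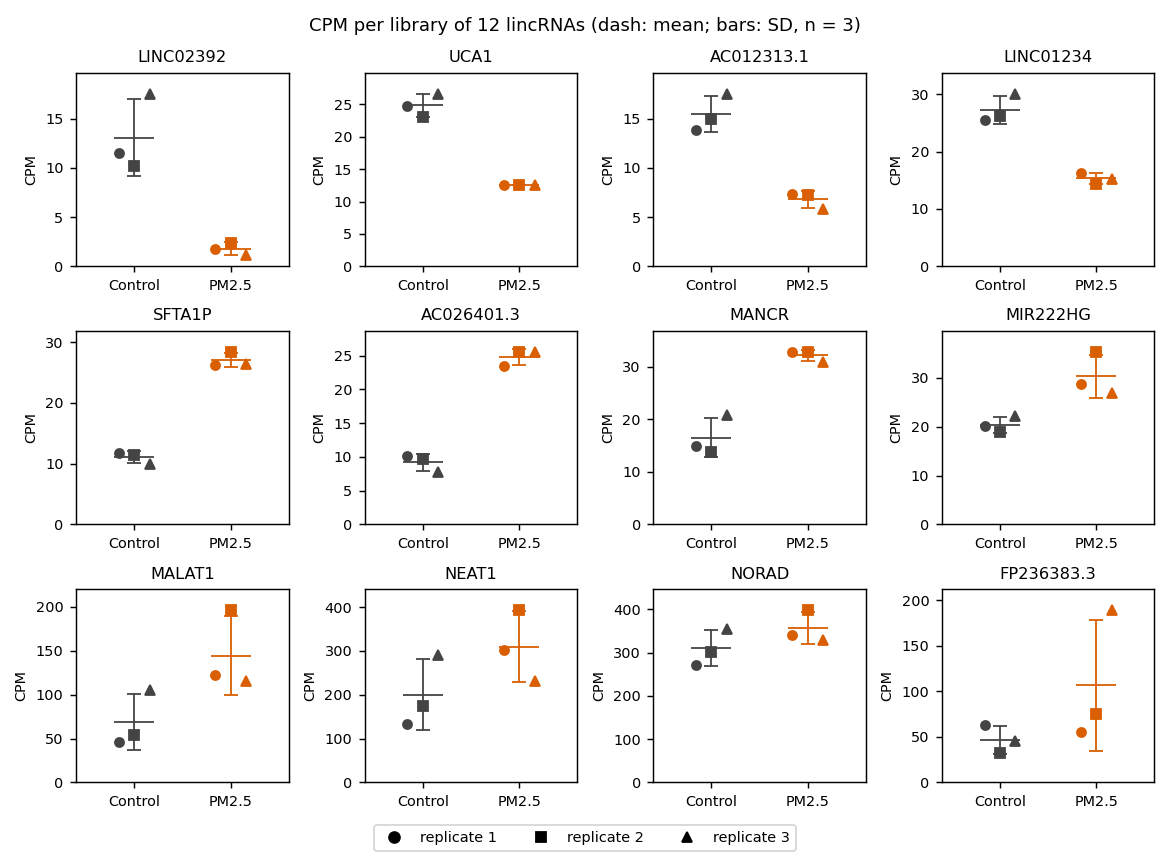
CPM (y axis, from 0) of 12 lincRNAs in each library of Control (grey) and PM2.5 (orange), with the marker shape giving the replicate, a dash for the mean and bars for the SD of 3 libraries. The groups are far apart for UCA1 (23.1 to 26.6 against 12.5 to 12.6 CPM) and SFTA1P, and run into each other for NEAT1, NORAD and FP236383.3.

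Among nuclear RNAs, MALAT1 and NEAT1 were higher in PM2.5, with Control replicate 3 close to the PM2.5 libraries in both. MALAT1 was at 46.1, 54.6 and 105 CPM in Control and 122, 196 and 115 CPM in PM2.5. Control replicate 3 was well above the other Control libraries and just below the lowest PM2.5 library. The log2 change was 1.07 ± 0.24 (edgeR adjusted p = 0.00289), 1.52 without Control replicate 3 and 0.79 without PM2.5 replicate 2, and DESeq2 gave an adjusted p of 0.0542.

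NEAT1 was at 134, 175 and 292 CPM in Control and 303, 393 and 232 CPM in PM2.5. Here the groups overlap, since PM2.5 replicate 3 lies below Control replicate 3. The log2 change was 0.63 ± 0.22 (edgeR adjusted p = 0.0366), and the call was lost in 7 of the 14 other fits. Its same-strand neighbour FRMD8, 9249 bases away, rose from 95.3 ± 3.35 to 151 ± 10.1 CPM (log2 0.66 ± 0.09). The third nuclear RNA on the list, LINC-PINT, is split over a pair of rows of the same symbol: the lincRNA row had a log2 change of 0.16 ± 0.21 and was not called, while the other, of biotype processed_transcript and so outside the 90, rose by 0.94 ± 0.23 (edgeR adjusted p = 0.00589).

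Genes of the proteins that share these bodies were read against the 16.1% called higher and 15.8% called lower among all tested genes, and the lists were not tested against each other. Of 10 nuclear speckle genes 5 were higher in PM2.5 and the other 5 were not called: SRSF11 (log2 0.79 ± 0.12), PNN (0.91 ± 0.13), SRSF2 (0.42 ± 0.11), SRRM1 (0.37 ± 0.11) and SRSF1, all splicing factors or their partners. Of 12 paraspeckle protein genes, TARDBP alone was called (log2 0.32 ± 0.11), and the median of the 12 was 0.02. The 3′ end of MALAT1 is cut by the enzymes that also trim tRNAs, and of 7 tested genes of that machinery POP1 was higher (0.99 ± 0.33), POP4 (-0.38 ± 0.10) and RPP40 (-0.55 ± 0.20) were lower and 4 were not called. Over all 95 tested genes of the lists of partners and processing factors 13 were higher and 13 were lower, with a median log2 change of -0.01. These counts depended on single libraries: 6 were higher without PM2.5 replicate 2 and 8 without Control replicate 1 or 2, and 5 were lower without Control replicate 2 and 7 or 8 without Control replicate 1 or any one PM2.5 library.

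Of 17 tested genes of the nuclear exosome and its cofactors, which degrade many lincRNAs, 3 were higher and 5 lower. MPHOSPH6, an exosome-associated protein, fell by 0.96 ± 0.14 on the log2 scale, and the core subunits EXOSC4 (-0.57 ± 0.13) and EXOSC6 (-0.51 ± 0.12) fell as well. Against these, the core subunit EXOSC9 (0.46 ± 0.13), the nuclease DIS3 (0.56 ± 0.15) and ZFC3H1, which hands nuclear polyadenylated RNA to the exosome (0.73 ± 0.12), rose. In the nonsense-mediated decay list of 14, which removes spliced RNAs with early stop codons, the kinase SMG1 rose (0.52 ± 0.14) and SMG8 (-0.87 ± 0.13) and UPF3A (-0.42 ± 0.14) fell. The part of these genes in the lincRNA levels was not tested.

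NORAD, the most counted of the 90, binds Pumilio proteins in the cytoplasm. It was at 272, 302 and 355 CPM in Control and 341, 398 and 330 CPM in PM2.5. The groups overlap through Control replicate 3, and the log2 change of 0.20 ± 0.11 was not called (edgeR adjusted p = 0.183). Among its partners the splicing factor gene PRPF19 was lower (log2 -0.25 ± 0.09). The other cytoplasmic or decoy RNAs of the 90 were UCA1, which fell, and CYTOR and MIR4435-2HG, which rose.

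CYTOR and MIR4435-2HG have to be read together, since the counting of shared reads is not described. The longest match between their annotated transcripts covers 2254 bases at 99.2% identity. CYTOR was at 37.4, 37.8 and 27.0 CPM in Control and 46.3, 43.0 and 43.4 CPM in PM2.5 (log2 0.38 ± 0.12, edgeR adjusted p = 0.0294). MIR4435-2HG was at 27.4, 26.0 and 24.7 CPM in Control and 32.0, 32.7 and 35.2 CPM in PM2.5 (log2 0.36 ± 0.11, edgeR adjusted p = 0.0165). In both, all PM2.5 libraries were above all Control libraries. Without Control replicate 3, the lowest library of CYTOR, its log2 change was 0.23 and was not called. Near copies were found for 9 of the 90 in all. Among them were NORAD (98.2% over 1036 bases, with LINC02211), MUC20-OT1 (99.2% over 1924 bases, with SDHAP1) and AC092368.3 (99.7% over 1577 bases, with RAB43). The counts of these lincRNAs are uncertain to that extent.

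The call of FP236383.3 rested on 1 library. The gene is 923 bases long at chr21:8437629-8438551, in the repeated region of chromosome 21, lies 1272 bases from a ribosomal RNA gene (RNA5-8SN2) on the other strand, and is 99.6% identical to FP671120.4. Per kilobase of exon it had the highest level of the 90 (83.1 CPM per kb), ahead of NORAD (62.5), LINC00973 (44.4) and SNHG8 (31.4). Its libraries were at 62.7, 32.2 and 46.0 CPM in Control and 55.6, 75.0 and 189 CPM in PM2.5. One library, PM2.5 replicate 3, was more than 2-fold above the rest, and the other PM2.5 libraries were inside the Control range or just above it. The log2 change of 1.18 ± 0.32 (edgeR adjusted p = 0.0105) became 0.47 and was not called without that library, nor was it called by DESeq2. The near copy FP236383.2 was at 12.4, 8.9 and 6.0 CPM in Control and 2.6, 1.8 and 16.2 CPM in PM2.5, again highest in PM2.5 replicate 3, and was not called.

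Among snoRNA hosts, which release snoRNAs from their introns to guide chemical modification of ribosomal RNA, SNHG4 and SNHG15 rose and SNHG8 and EPB41L4A-AS1 were not called. SNHG4 was at 2.3, 2.3 and 2.5 CPM in Control and 4.1, 4.4 and 3.5 CPM in PM2.5 (log2 0.74 ± 0.21, edgeR adjusted p = 0.0145), and 16.6% of its exonic sequence is shared with exons of other genes, mainly MATR3 on the same strand. SNHG15 was at 9.6, 10.7 and 8.2 CPM in Control and 13.4, 11.1 and 14.5 CPM in PM2.5 (log2 0.45 ± 0.15, edgeR adjusted p = 0.0334), a narrow gap between the groups. The call of SNHG15 was lost in 5 of the 14 other fits and that of SNHG4 in 2. SNHG8 had a log2 change of -0.10 ± 0.14 and EPB41L4A-AS1 of -0.20 ± 0.15, with Control replicate 3 the lowest library in each (22 and 47.1 CPM). Of the exonic bases of EPB41L4A-AS1 49.6% lie under other exons, the largest overlap being with EPB41L4A on the opposite strand. The strand setting of the counting is not given. In the list of 13 tested proteins that bind snoRNAs, edgeR called 0, with 2 at an unadjusted p under 0.05, limma-voom called 0 and DESeq2 called 1.

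MicroRNA hosts give rise to microRNAs, short RNAs that pair with messenger RNAs through their seed, bases 2 to 8. By position, 13 of the 90 lincRNAs were found to hold 20 annotated microRNA genes, with 31 mature forms and 27 different seeds. The search did not cover every one of the 90, so these counts are minimums. Of these 13 hosts 5 rose (MIR29B2CHG, MUC20-OT1, MIR222HG, CYTOR and MIR4435-2HG) and the other 8 were not called. Among all tested genes 16.1% were called higher, and 18.3% among those of 3 CPM or more. The mature microRNAs were not measured in these libraries, and a host level is no measure of them. Shown are forms whose seed recurs within or between hosts of MIR222HG, CYTOR and the miR-29 family, and the best-known forms of MIR22HG and MIR3142HG. RefSeq on GRCh38.p14 gives the sequences, 5′ to 3′, with the seed in capitals.
hsa-miR-221-3p (MIR222HG): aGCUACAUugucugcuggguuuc
hsa-miR-222-3p (MIR222HG): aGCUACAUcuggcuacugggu
hsa-miR-29c-3p (MIR29B2CHG): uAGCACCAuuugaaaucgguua
hsa-miR-29b-3p (MIR29B2CHG, LINC-PINT and AC016831.6): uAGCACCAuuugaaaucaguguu
hsa-miR-29a-3p (AC016831.6): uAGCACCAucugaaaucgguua
hsa-miR-4435 (CYTOR and MIR4435-2HG): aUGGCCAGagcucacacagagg
hsa-miR-22-3p (MIR22HG): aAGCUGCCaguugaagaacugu
hsa-miR-146a-5p (MIR3142HG): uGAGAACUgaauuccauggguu

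The pair with the seed GCUACAU comes from 1 host, MIR222HG at chrX:45745211-45770274, which was at 20.1, 19 and 22.2 CPM in Control and 28.7, 35.3 and 27.0 CPM in PM2.5. All PM2.5 libraries were above all Control libraries, and the log2 change was 0.57 ± 0.13 (edgeR adjusted p = 0.00256). The seed AGCACCA of the miR-29 family is carried by 3 hosts, MIR29B2CHG on chromosome 1 and an overlapping pair on chromosome 7. MIR29B2CHG was at 6.4, 6.2 and 11.4 CPM in Control and 12.7, 16 and 10.2 CPM in PM2.5, so that Control replicate 3 lay inside the PM2.5 range (log2 0.69 ± 0.22, edgeR adjusted p = 0.025). Its call was lost in 5 of the 14 other fits. The chromosome 7 hosts AC016831.6 (log2 0.26 ± 0.18) and LINC-PINT were not called, and 31.6% of the exonic bases of LINC-PINT lie under other exons, mainly those of AC016831.6.

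MIR22HG, a host that responds to several kinds of chemical stress, was at 10.7, 8.8 and 13.1 CPM in Control and 13.8, 12.5 and 15 CPM in PM2.5. The groups overlap, and the log2 change of 0.34 ± 0.16 was not called (edgeR adjusted p = 0.112). MIR210HG, the host of the hypoxia-induced miR-210, was at 6.7, 6.3 and 9.0 CPM in Control and 6.6, 5.6 and 6.4 CPM in PM2.5, with a log2 change of -0.24 ± 0.18. PVT1, a neighbour of MYC, had a log2 change of 0.20 ± 0.15 and was not called. It is listed as a microRNA host by name, but the search by position did not cover it, so it is not among the 13 hosts. Of the genes that make or load microRNAs, AGO2 (0.44 ± 0.10) and DICER1 (0.53 ± 0.15) rose, the exporter XPO5 (-0.27 ± 0.09) and TARBP2 (-0.44 ± 0.15) fell, and 10 of the 14 were not called.

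Lists of stress-linked and p53-linked RNAs were short, and their counts stand beside the 38 called among all 90. Of the 5 RNAs linked to hypoxia, stress or the oxidant-responsive factor NRF2, UCA1 and LINC00941 fell and MIR22HG, MIR210HG and LINC00973 were not called. LINC00941 was at 6.3, 7.8 and 8.5 CPM in Control and 5.2, 6.1 and 4.2 CPM in PM2.5 (log2 -0.54 ± 0.19, edgeR adjusted p = 0.0364), and the call was lost in 6 of the 14 other fits. Of 3 RNAs linked to p53, NEAT1 rose, and LINC-PINT and PVT1 were not called.

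Several of the most counted lincRNAs had log2 changes near 0. LINC01588 was at 40.5, 40.9 and 41.3 CPM in Control and 40.3, 40.4 and 43.3 CPM in PM2.5, a log2 change of 0.01 ± 0.10. EBLN3P, a relic of a bornavirus nucleoprotein gene, had 0.15 ± 0.10. LINC00973 had 0.04 ± 0.12, with a Control replicate 3 (33.7 CPM) below all other libraries (42.0 to 48.6 CPM). FTX, which lies by XIST, had a log2 change of 0.88 ± 0.37 that was not called (edgeR adjusted p = 0.0805): it was at 1.0, 1.4 and 4.0 CPM in Control and 3.5, 4.9 and 3.5 CPM in PM2.5. Of the exonic bases of FTX 44.3% lie under other exons, the largest overlap being with JPX on the opposite strand.

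**Figure D3:**
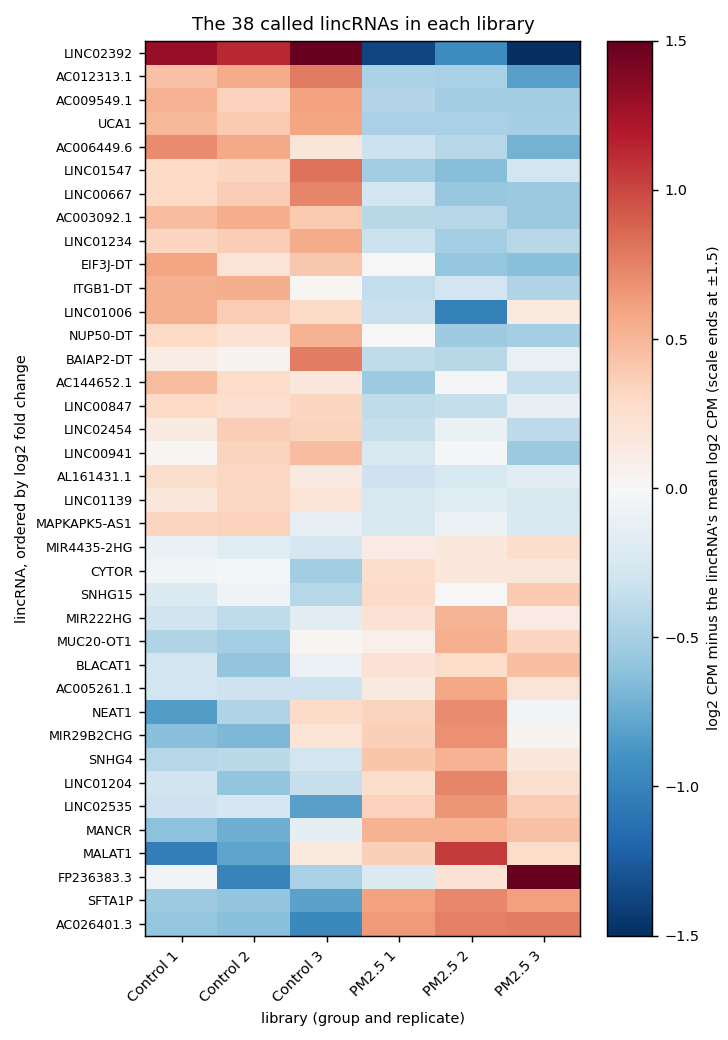
Log2 CPM of each of the 38 called lincRNAs (rows, ordered by log2 fold change) in the 6 libraries (columns), minus the mean of the row; red is above and blue below that mean, and the colour scale ends at ±1.5. Control replicate 3 shares the colour of most PM2.5 libraries for NEAT1, MALAT1 and MIR29B2CHG, and the FP236383.3 row is strongly red in PM2.5 replicate 3 alone.

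In 34 of the 38 called lincRNAs the groups did not overlap. The calls come from the same values, so this count adds no support to them, and the share among all called genes was not counted. The exceptions were NEAT1, MIR29B2CHG, FP236383.3 and MAPKAPK5-AS1. Control replicate 3 was within the PM2.5 range in NEAT1, MIR29B2CHG and MAPKAPK5-AS1.

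A group that stood out by name were the divergent transcripts, named for a start near the promoter of a coding gene and a run the other way. This grouping was chosen after its values were seen, so it has no test. Among the 90 lincRNAs 10 have a deposited or current symbol ending in -DT. Of these, 7 fell: AC012313.1, EIF3J-DT, ITGB1-DT, LINC01006 (now RNF32-DT), NUP50-DT, BAIAP2-DT and AC144652.1 (now INSIG1-DT). By position, AC012313.1 and ITGB1-DT have no coding start on the opposite strand within 2000 bases of their own start. The call of AC144652.1 was lost in 11 of the 14 other fits, that of LINC01006 in 6, that of EIF3J-DT in 3 and that of NUP50-DT in 2. The other 3 were not called, among them OSER1-DT and LINC01184 (now SLC12A2-DT) with log2 changes of -0.55 and -0.54. The median of the 10 was -0.66. The remaining 80 had 17 higher, 14 lower and a median of 0.15.

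The coding partners of these divergent transcripts did not follow 1 direction. BAIAP2-DT was at 31.0, 29.4 and 48.7 CPM in Control and 21.9, 21.4 and 26.4 CPM in PM2.5 (log2 -0.65 ± 0.16, edgeR adjusted p = 0.00675), while BAIAP2, an adaptor of the actin cytoskeleton, was at 134 ± 9.30 and 130 ± 8.95 CPM. Control replicate 3 was its highest library, and without it the log2 change of BAIAP2-DT was -0.38 and still called. ITGB1-DT was at 16.2, 16.3 and 11.5 CPM in Control and 8.7, 9.2 and 8.2 CPM in PM2.5, and ITGB1, the integrin β1 subunit on the other strand, whose exons cover 3.52% of those of ITGB1-DT, rose from 625 ± 69.0 to 1092 ± 150 CPM (log2 0.80 ± 0.12). NUP50, a nuclear pore gene, had a log2 change of 0.24 ± 0.12 and EIF3J, a translation initiation factor, of 0.12 ± 0.12, and neither was called. INSIG1, which holds back the cell's sterol response, fell beside AC144652.1, from 256 ± 103 to 169 ± 8.41 CPM (log2 -0.60 ± 0.20).

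Head-to-head pairs were defined by position, as a lincRNA and a coding gene on opposite strands whose starts lie at most 2000 bases apart. There were 20 such pairs, 12 of them with the same sign of change. In 3 of them both were called, and all 3 fell together: AC144652.1 with INSIG1, LINC01547 with FAM207A (-0.31 ± 0.10), and MAPKAPK5-AS1 (-0.38 ± 0.13) with the kinase gene MAPKAPK5 (-0.41 ± 0.13). The call of AC144652.1 held in 3 of the 14 other fits, that of MAPKAPK5-AS1 in 6 and that of LINC01547 in all 14. The MAPKAPK5 pair overlaps, and since the strand setting of the counting is not given, reads of such pairs cannot be told apart with certainty.

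Over all 71 lincRNAs whose nearest protein-coding gene was tested, 42 pairs (59.2%) changed with the same sign, and the log2 changes had a Pearson r of 0.27 and a Spearman rho of 0.28 across pairs. For 7747 coding genes of 3 CPM or more and their own nearest coding gene, the share was 55.3% and r was 0.11. These values describe pairs from the same 6 libraries, which are not independent. In 15 of the 71 pairs both were called, 11 in the same direction, and among the coding pairs in 1064 of 7747, 661 in the same direction. Among them were AC003092.1 with BET1, a vesicle fusion gene (-0.37 ± 0.11), LINC01234 with RBM19, a ribosome assembly gene (-0.55 ± 0.10), and AC005261.1 with the zinc finger gene ZNF460 (0.63 ± 0.22).

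Large changes of a neighbour went with small ones of the lincRNA in several pairs chosen after their values were seen. SHCBP1, a gene of dividing cells, rose by 2.41 ± 0.13 on the log2 scale, while AC092368.3, 1235 bases away on the same strand, had a log2 change of 0.15 ± 0.17. AC092368.3 matches RAB43 on chromosome 3 over 1577 of 1591 bases at 99.7% identity, so its counts may include reads of RAB43. PTTG1, the securin gene, rose by 1.77 ± 0.14 beside MIR3142HG (0.35 ± 0.27). MYO16, a myosin gene, fell by 2.08 ± 0.28 beside AL161431.1. In the other direction, the neighbours of MANCR (AKR1E2, -0.08 ± 0.20), LINC02535 (NT5E, 0.08 ± 0.12), SNHG4 (SIL1, 0.24 ± 0.11) and AC006449.6 (MLLT6, -0.23 ± 0.09) were not called. Those of BLACAT1 (LEMD1, 0.63 ± 0.40) and LINC01006 (RNF32, 0.73 ± 0.46) were not called either, at low levels (Control means 0.94 and 0.62 CPM). The change of LEMD1 was as large as that of BLACAT1 (0.62). Of the exonic bases of BLACAT1 11.6% lie under other exons, mainly those of LEMD1 on the same strand. EIF3J-DT fell beside CTDSPL2, which overlaps it and rose (0.62 ± 0.17).

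**Figure D4:**
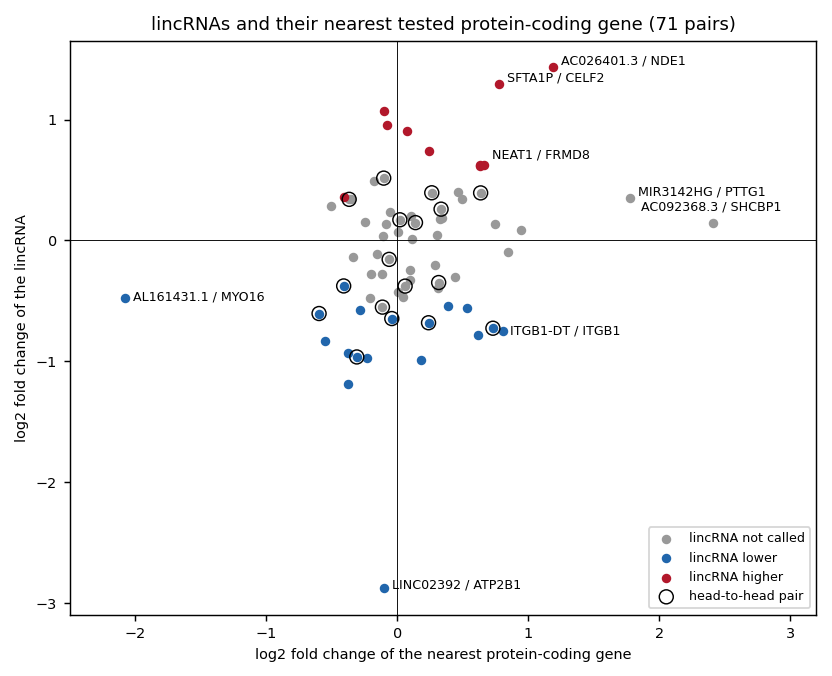
Log2 fold change of each lincRNA (y axis) against that of its nearest tested protein-coding gene (x axis) for 71 pairs, coloured by the call of the lincRNA, with black rings on head-to-head pairs. NDE1 and CELF2 rose with AC026401.3 and SFTA1P, while SHCBP1 and PTTG1 rose with little change of the lincRNA beside them.

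The structure of the genes went little with the change. Of the 90 lincRNAs 19 have a single exon in every annotated transcript, 4 of the 17 that rose and 3 of the 21 that fell. In 48 of the 90 no exonic base lies under an exon of another gene, and in 0 of them does more than 50% do so. Of those 48, 7 were higher and 11 lower. The spans of 22 of the 90 overlap that of a protein-coding gene on either strand, among them 5 of the 17 that rose and 6 of the 21 that fell. Across the 90, Spearman's rho with the log2 change was 0.16 for exonic length, 0.03 for the length of the gene span and 0.07 for the mean level, a description over genes of the same libraries.

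Promoter windows from RefSeq (250 bases before to 50 after the start, GRCh38.p14) were found for 52 of the 90, and 29 of these start within 100 bases of the deposited gene's start. Their median GC content was 50.8% for the 8 that rose, 68% for the 14 that fell and 61% for the 30 not called. Of the 8, CYTOR, LINC02535, MIR4435-2HG and MIR29B2CHG have windows 646 to 56393 bases from the deposited start, with 44.7% to 52% GC. The windows of MIR222HG, SNHG4, MANCR and MALAT1 are closer and had 54.7%, 63.3%, 36.7% and 73.7%. Some windows of those that fell are distant too, as for LINC02392 (12424 bases, 39%). Shown here are a pair that rose and a pair that fell whose windows start within 100 bases, with capitals for every match, on either strand, to TGACNNNGC (antioxidant response element core), GCGTG (xenobiotic response element core), TGANTCA (AP-1) or TTTGAA (cell cycle homology region).
MANCR, chr10:4678021-4678320, minus strand: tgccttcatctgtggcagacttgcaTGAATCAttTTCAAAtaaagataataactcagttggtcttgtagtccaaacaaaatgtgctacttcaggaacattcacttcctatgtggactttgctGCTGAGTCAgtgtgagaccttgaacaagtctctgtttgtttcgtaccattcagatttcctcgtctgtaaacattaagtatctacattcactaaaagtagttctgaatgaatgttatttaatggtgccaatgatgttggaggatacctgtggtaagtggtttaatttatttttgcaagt
MALAT1, chr11:65497488-65497787, plus strand: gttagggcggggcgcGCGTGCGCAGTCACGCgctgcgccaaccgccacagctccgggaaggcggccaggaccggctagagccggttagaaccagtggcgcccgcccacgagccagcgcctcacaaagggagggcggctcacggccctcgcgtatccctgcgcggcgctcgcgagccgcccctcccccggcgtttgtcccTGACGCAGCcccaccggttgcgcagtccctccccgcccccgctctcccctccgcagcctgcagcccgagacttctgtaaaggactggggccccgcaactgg
AC012313.1, chr19:58408414-58408713, minus strand: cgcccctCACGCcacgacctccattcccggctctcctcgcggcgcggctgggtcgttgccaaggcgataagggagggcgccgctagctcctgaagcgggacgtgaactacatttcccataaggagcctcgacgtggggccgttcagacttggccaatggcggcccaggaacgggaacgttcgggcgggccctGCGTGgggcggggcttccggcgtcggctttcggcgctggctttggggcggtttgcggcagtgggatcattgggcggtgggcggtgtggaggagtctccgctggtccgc
EIF3J-DT, chr15:44536874-44537173, minus strand: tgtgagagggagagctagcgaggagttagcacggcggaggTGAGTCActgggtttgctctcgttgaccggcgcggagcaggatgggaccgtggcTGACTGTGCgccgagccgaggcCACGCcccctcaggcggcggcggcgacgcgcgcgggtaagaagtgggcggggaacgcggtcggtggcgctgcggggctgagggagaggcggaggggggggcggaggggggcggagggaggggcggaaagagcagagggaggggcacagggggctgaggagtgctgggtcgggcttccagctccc

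The window of MANCR is poor in GC (36.7%) and holds 2 matches to TGANTCA, 1 of which overlaps a match to TGACNNNGC. That of MALAT1 is GC-rich (73.7%) and holds 2 matches to TGACNNNGC, and those of AC012313.1 and EIF3J-DT are GC-rich too (69% and 72.7%). GCGTG is in the windows of MALAT1, AC012313.1 and EIF3J-DT, and that of EIF3J-DT, which fell, also holds TGACNNNGC and TGANTCA. TGACNNNGC was found in 5 of the 8 windows of lincRNAs that rose (MALAT1, MANCR, SNHG4, LINC02535 and MIR29B2CHG, the last pair with windows 14616 and 56393 bases from the deposited start), 2 of the 14 that fell and 9 of the 30 not called. It is in 30.8% of the 52 windows and in 13.6% of all 27305 promoter windows of that length. TGANTCA was found in 4 of the 8, 1 of the 14 and 3 of the 30, against 7.8% of all windows. Of those 4, MANCR alone has a window within 100 bases of the deposited start: those of CYTOR, LINC02535 and MIR4435-2HG lie 646, 14616 and 28215 bases away, and CYTOR and MIR4435-2HG are near copies over part of their length. GCGTG was found in 2 of the 8, 8 of the 14 and 16 of the 30, against 36.3% of all. The other motifs searched on both strands were TTTGAA (11.5% of the 52 windows, 15.4% of all), CACGTG, an E-box (11.5%, 7.4%), TATAAA, the TATA box (3.8%, 12%), TGACGTCA, the cAMP response element (1.9%, 2%), and the E2F motifs TTTCCCGC (1.9%, 1.7%) and TTTGGCGC (0%, 0.7%). A short motif matches more often where the base composition favours it, and a match is a description of the letters only.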

How the data were processed

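Gene-level raw counts of 6 RNA-seq libraries were deposited by the authors as a single table, per the file headers. Per the labels' protocols, TRIzol was used for extraction and the NEBNext Ultra RNA kit for the libraries. GRCh38 is the genome build, per the submitters' processing notes. Aligner, counter and strand: not given in the sources used here. By identifier and position, 58735 rows matched GENCODE release 29, which gave exons and neighbours.

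Counts were analysed with edgeR 4.0.16 in R 4.3.3 (filterByExpr with a minimum count of 10 and total of 15, TMM factors of 0.962 to 1.047, quasi-likelihood test on group, two-sided, Benjamini-Hochberg over 14975 genes, called under 0.05). Printed levels are CPM with TMM factors, with SD over 3 libraries, and the SE is the size of the log2 change over the root of the F statistic. The selection used CPM on raw totals. No pair of replicates agreed within sampling noise (chi-square per degree of freedom 5.85 to 37.2). On simulated data for this comparison (14975 genes, 200 changed), 48.8% of 1.5-fold, 76.7% of 2-fold and 98.3% of 4-fold changes were recovered, with 8 false calls of 151. Near copies were sought with blastn 2.17.0 (98% identity over 200 bases). Alternatives were DESeq2 1.42.0, limma 3.58.1, other scalings, filters and levels, a replicate block and each library left out.

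The lincRNAs and gene lists were chosen with earlier results of these data known. Named lincRNAs are the 10 most counted, the 12 largest called rises and falls without overlap, the 4 smallest p each way, called and uncalled members of short role lists, those at the threshold and some well-known RNAs; others were named after their values were seen. A few values are not reported here.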

Additional observations from a re-analysis of the deposited data

How the results depend on the processing

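All 38 called lincRNAs kept their sign in each of the 14 other fits, and 17 kept their call in every one (5 higher, 12 lower). Leaving out 1 library left 24 to 35 of the 38 called, and other scalings, filters and tools 30 to 37. The number higher was 9 to 22 with 1 library left out, the lowest without PM2.5 replicate 2, and the number lower 14 to 25. With a minimum of 1 CPM (227 lincRNAs) 31 were higher and 38 lower, with 10 CPM (29 lincRNAs) 11 and 9, without exon overlap (48 lincRNAs) 7 and 11, and at 2-fold or more 4 and 2, as fewer or more lincRNAs could pass. With a replicate block 13 lincRNAs were higher and 14 lower, and calls over all genes went from 4775 to 3777. The deviations of same-numbered libraries from their group means had correlations of -0.0016, -0.051 and -0.12, and those of other pairs ran from -0.11 to 0.14. So few values cannot decide whether same-numbered libraries were handled together. Of the 95 partner genes, 13 higher and 13 lower, 6 to 18 were higher and 5 to 19 lower with 1 library left out, 6 were lower with the replicate block, and 8 were lower with library totals and 8 with upper-quartile factors; the cause was not tested. The lowest came without PM2.5 replicate 2 (higher) and Control replicate 2 (lower), the highest without PM2.5 replicate 3 (higher) and Control replicate 3 (lower). For 42 lincRNAs named by the rule, 529 of 588 values kept sign and side of the threshold, 52 lost and 4 gained the call, and 3 near 0 reversed: SNHG8 without Control replicate 2 (log2 -0.28 to 0.0085 with 1 library left out), LINC01588 without PM2.5 replicate 3 (-0.022 to 0.043) and LINC00973 without Control replicate 3 (-0.10 to 0.15). No scaling moved the median of all genes by more than 0.024 on the log2 scale. Over all levels 48.8% of simulated 1.5-fold changes were recovered, with 200 genes changed, whereas 4775 genes were called in the data. The adjusted threshold depends on that number, so the share recovered need not hold for these data. A lincRNA that was not called may still have changed by 1.5-fold.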

Other observations

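The lincRNAs just below 3 CPM held further changes of 2-fold or more. Of the 137 lincRNAs with a mean of 1 to 3 CPM, edgeR's quasi-likelihood test called 14 higher and 17 lower, and 25 of these were at least 2-fold (12 higher, 13 lower). Among all tested genes 16.1% were called higher and 15.8% lower, and 7.22% were called and at least 2-fold. Those shares cover genes of all levels, and the shares among other genes of 1 to 3 CPM were not counted. The following were chosen for their size. LINC02361 fell from 3.12 ± 0.34 to 0.60 ± 0.16 CPM (SD, n = 3; log2 -2.36 ± 0.30 SE). LINC00996 went from 2.15 ± 0.56 to 0.45 ± 0.19 CPM (log2 -2.25 ± 0.39), and AC112721.1 on chromosome 2 from 3.72 ± 0.26 to 0.84 ± 0.08 CPM (log2 -2.14 ± 0.26), together with AC112721.2 beside it (log2 -1.46 ± 0.27). Among those that rose were MIR3681HG (0.47 ± 0.15 to 2.05 ± 0.55 CPM, log2 2.11 ± 0.37), MIR503HG, the host of miR-503 (0.87 ± 0.41 to 3.50 ± 0.71 CPM, log2 2.01 ± 0.33), and HIF1A-AS2, an antisense RNA at HIF1A (0.53 ± 0.04 to 1.77 ± 0.40 CPM, log2 1.72 ± 0.36).

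Some well-known long non-coding RNAs carry another biotype in the table and so are not among the 90. TUG1 rose from 32.4 ± 6.56 to 44.0 ± 7.59 CPM (log2 0.44 ± 0.15, edgeR adjusted p = 0.0294), with overlapping groups. GAS5, a snoRNA host, was at 262, 265 and 182 CPM in Control and 188, 200 and 201 CPM in PM2.5 (log2 -0.27 ± 0.12, edgeR adjusted p = 0.111), with Control replicate 3 below every other library. H19, HOTAIR and MIR31HG had means under 0.1 CPM and were not tested.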
